A study of Mus musculus with 16 samples.

Results

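The genes described here are Klhl31, Fbxo40, Tmod1, Camk2b and Myo18a, 5 of the 24011 gene symbols in the count table. They were chosen from measured values, as genes of muscle, actin, myosin or calcium signalling whose counts were higher with estradiol (E2, the main natural estrogen) in each of 4 vehicle and E2 pairs of aorta libraries. RNA sequencing covered 16 libraries in 4 groups of 4: aorta with vehicle, aorta with E2, liver with vehicle and liver with E2. All groups share the animals' background, female wild-type C57BL/6 mice ovariectomized at 6 to 7 weeks of age with tissue taken 1 week later. Pieces were kept in DMEM for 4 h at body temperature with 10 nM E2 or with ethanol, so the data describe cultured whole tissue and not cells in the animal. Per the labels, 8 libraries came from an Ovation kit with 50 ng of RNA and 8 from poly-A selection with a TruSeq kit and 600 ng of RNA of a single aorta or liver fragment, while the series text speaks of tissue from 4 mice in a replicate. The count table names libraries by a suffix, o1, o2, n1 or n2, that no label explains, and libraries are called by that suffix here.

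Muscle cells shorten when myosin pulls on actin filaments, and calcium switches that process on, through troponin in striated muscle and through calmodulin and myosin light chain kinase in smooth muscle. Actin filaments keep their length because capping proteins close their ends, and worn muscle proteins are tagged for destruction by ubiquitin ligases that reach their targets through adaptors. The aorta's contractile cells are smooth muscle, and estrogen acts on them and on the endothelium through estrogen receptors that bind DNA. Among the 5 genes, Klhl31 encodes a Kelch-repeat protein of the family that links targets to Cul3 ubiquitin ligases, and it is known from heart and skeletal muscle. Fbxo40 encodes a muscle F-box protein that brings the insulin signalling adaptor Irs1 to a ubiquitin ligase. Tmod1 encodes tropomodulin 1, which caps the slow-growing end of actin filaments in muscle and red cells. Camk2b encodes the beta subunit of calcium/calmodulin-dependent kinase II, best known from brain, where it also binds actin. Myo18a encodes an unconventional myosin with a PDZ domain that is made in many tissues and binds the Golgi protein Golph3.

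The DNA just before each start of transcription was read from RefSeq (build GRCm38.p6, not the mm9 build of the authors' alignment), 250 bases for each of 7 starts of the 5 genes. The 4 windows below are shown because they hold the muscle-related or estrogen-related letters that were searched. Capitals mark the MEF2 site and the muscle E-box CAGCTG in the first, the E-box and the single arm of the estrogen response element, GGTCA or its complement, in the second, the MCAT site GGAATG, here as its complement, in the third and the E-box in the fourth.
Fbxo40, start 1, chr16:36990468-36990717, minus strand: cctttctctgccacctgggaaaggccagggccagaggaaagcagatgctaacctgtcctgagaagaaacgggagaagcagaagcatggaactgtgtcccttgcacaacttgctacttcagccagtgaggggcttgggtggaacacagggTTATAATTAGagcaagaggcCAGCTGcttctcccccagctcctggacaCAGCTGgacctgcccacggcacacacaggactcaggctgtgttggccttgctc
Fbxo40, start 2, chr16:36979137-36979386, minus strand: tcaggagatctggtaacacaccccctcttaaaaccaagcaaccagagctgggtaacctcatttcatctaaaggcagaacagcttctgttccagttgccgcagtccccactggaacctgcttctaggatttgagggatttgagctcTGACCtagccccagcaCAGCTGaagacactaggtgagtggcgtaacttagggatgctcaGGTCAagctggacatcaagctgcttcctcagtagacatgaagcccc
Tmod1, chr4:46038972-46039221, plus strand: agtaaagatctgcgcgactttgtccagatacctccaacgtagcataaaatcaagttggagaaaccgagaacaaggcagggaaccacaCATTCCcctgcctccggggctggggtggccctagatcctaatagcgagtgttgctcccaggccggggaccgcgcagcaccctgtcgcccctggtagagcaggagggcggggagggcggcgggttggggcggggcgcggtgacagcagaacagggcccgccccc
Myo18a, start 2, chr11:77801048-77801297, plus strand: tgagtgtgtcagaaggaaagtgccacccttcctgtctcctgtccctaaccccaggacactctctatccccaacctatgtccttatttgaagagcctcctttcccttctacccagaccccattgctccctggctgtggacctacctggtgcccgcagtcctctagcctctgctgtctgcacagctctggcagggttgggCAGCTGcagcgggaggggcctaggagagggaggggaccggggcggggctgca

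Each motif was searched on both strands, and its share among 32851 windows of the same length before RefSeq starts was counted the same way. The E-box CAGCTG was in 3 of the 7 windows and in 13% of all windows. It begins 81 and 53 bases before Fbxo40 start 1, 89 bases before Fbxo40 start 2 and 52 bases before Myo18a start 2. The MEF2 site was in 1 of the 7 windows, 101 bases before Fbxo40 start 1, and in 2.92% of all windows. GGTCA was in 1 of the 7, at Fbxo40 start 2, where it begins 105 and 46 bases before the start, and in 35.2% of all windows. GGAATG was in 1 of the 7, 163 bases before the start of Tmod1, and in 12.6% of all. The full estrogen response element, both arms set 3 bases apart, was found in 0.0639% of all windows and in none of the 7. The AP-1 site TGANTCA (6.75% of all), the CArG box (1.47%) and TATAAA (12.4%) were in none of the 7 either. The GC box GGGCGG, in 32.7% of all windows, was in 3 of the 7: those of Tmod1, Camk2b and Myo18a start 2. These matches are letters in short windows, and a window without a match says nothing about the factor.

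The total of gene counts in a library lay between 3896733 and 19823982, so that 3 counts were worth 0.116 to 1.01 CPM. CPM are counts per 1e6 reads, on library sizes adjusted by TMM over all libraries. The tissue labels held: the 16 smooth muscle markers summed to 13500 to 41500 CPM in aorta and 693 to 2570 CPM in liver, and 10 hepatocyte markers to 67.5 to 649 CPM in aorta and 82100 to 228000 CPM in liver. Among the aorta libraries, vehicle o1 stood apart in its 18 cardiac muscle markers, which summed to 448 CPM against 176 to 347 CPM in the others, and vehicle n2 and o2 held the most lymphocyte markers (221 and 207 CPM, against 25.0 to 102 CPM in the other libraries). In whole tissue, fewer cells of a type and less RNA per cell cannot be told apart. Nothing says that the replicates of a group came from separate animals in every case, so p-values measure the spread between these libraries.

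Klhl31 was measured at low levels. In vehicle aortas o1, o2, n1 and n2 it had 2.04, 2.86, 0.558 and 0.706 CPM, and in the E2 aortas of the same suffixes 6.50, 17.6, 6.43 and 3.24 CPM. Every E2 library was above every vehicle library, by a narrow margin between E2 n2 and vehicle o2, and E2 o2 was far above the rest. The means were 1.54 ± 1.11 CPM with vehicle and 8.44 ± 6.28 CPM with E2 (SD, n = 4), from 94 and 566 counts in all.

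Fbxo40 had 0.681, 2.91, 2.75 and 1.18 CPM in vehicle aortas o1, o2, n1 and n2, and 6.05, 7.83, 12.8 and 4.58 CPM in the E2 aortas. The lowest E2 library, n2, lay above the highest vehicle library, o2. Means were 1.88 ± 1.12 CPM with vehicle and 7.81 ± 3.57 CPM with E2 (SD, n = 4), from 148 and 610 counts. Both adaptor genes of ubiquitin ligases were thus low in vehicle aorta, with a wide spread between libraries in proportion to their level. Some libraries held few counts, such as 4 for Fbxo40 in o1 and 9 for Klhl31 in n2, and others more, such as 60 and 59 in o2.

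Tmod1, the actin-capping member, had 11.6, 9.42, 14.2 and 6.12 CPM in vehicle aortas o1, o2, n1 and n2 and 40.7, 25.5, 43.2 and 37.7 CPM in the E2 aortas. The groups were far apart, with E2 o2 the lowest E2 library and vehicle n1 the highest vehicle library. Means were 10.3 ± 3.42 CPM with vehicle and 36.8 ± 7.82 CPM with E2 (SD, n = 4). On the opposite strand Tmod1 is overlapped by Tstd2, with which it shares 1287 exon bases in GENCODE vM21, and the strand setting of the counts is not given. Tstd2 itself had 7.71 ± 3.96 CPM with vehicle and 8.71 ± 2.30 CPM with E2 in aorta (SD, n = 4).

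Camk2b, the kinase, had 3.23, 3.59, 5.50 and 2.82 CPM in vehicle aortas o1, o2, n1 and n2 and 9.38, 11.6, 16.3 and 11.9 CPM in the E2 aortas. Library n1 was the highest in both groups, and the groups did not overlap. Its means were 3.79 ± 1.18 CPM with vehicle and 12.3 ± 2.91 CPM with E2 (SD, n = 4).

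Myo18a, the myosin, had the most counts of the 5 and the smallest SD in proportion to its mean. It had 97.6, 69.0, 90.4 and 114 CPM in vehicle aortas o1, o2, n1 and n2 and 211, 198, 228 and 236 CPM in the E2 aortas. The E2 libraries sat close together at a level that no vehicle library came near. Means were 92.7 ± 18.5 CPM with vehicle and 218 ± 17.2 CPM with E2 (SD, n = 4).

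**Figure D1:**
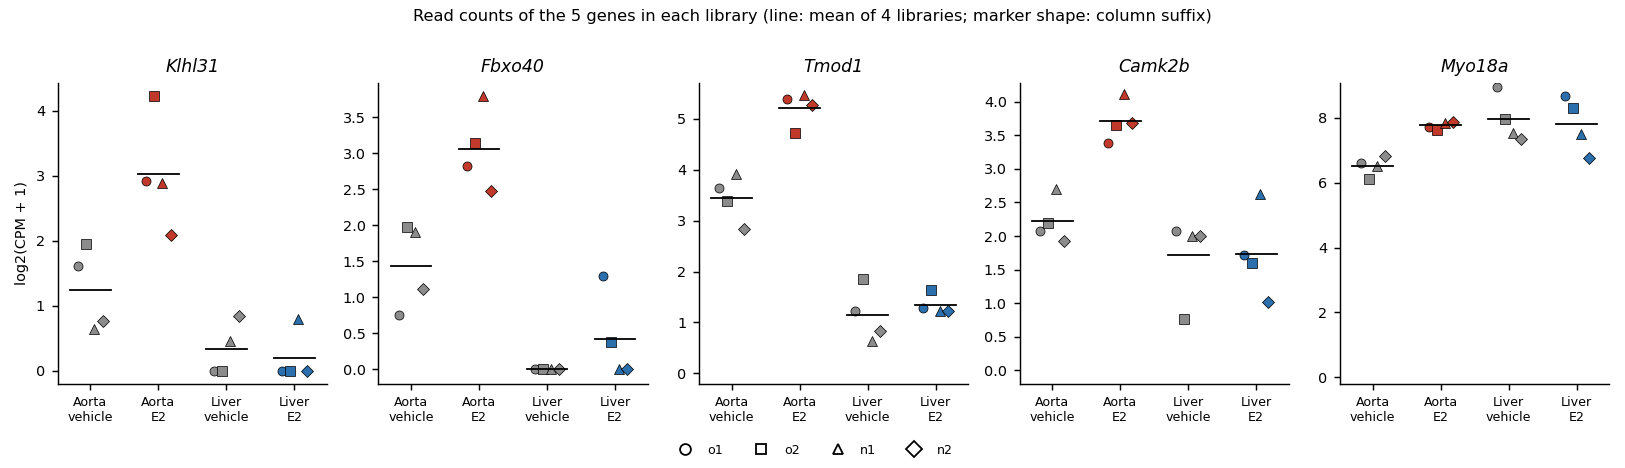
Level of each of the 5 genes, as log2(CPM + 1) on the vertical axis, in the 4 libraries of each group, with a marker shape for each suffix and a line at the group mean. In aorta the E2 points lie above the vehicle points for each gene, from Klhl31 (1.54 to 8.44 CPM) to Myo18a (92.7 to 218 CPM), while in liver the groups overlap.

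In the model across all genes (edgeR, quasi-likelihood, with a batch term for o1, o2 and n), the log2 difference of E2 over vehicle in aorta was 2.55 ± 0.36 for Klhl31, 2.06 ± 0.45 for Fbxo40, 1.79 ± 0.26 for Tmod1, 1.67 ± 0.27 for Camk2b and 1.23 ± 0.16 for Myo18a (SE). These are folds of 5.85, 4.18, 3.46, 3.19 and 2.35. Since the genes were picked on this contrast, the differences describe them and carry no test. Among 13698 genes in the model, ranked by log2 difference from the highest, they stood at places 3, 9, 11, 16 and 41. That model called 0 genes at an adjusted p under 0.05 (0% of those tested), with 495 (3.61%) at an unadjusted p under 0.05, where DESeq2 called 24, the 5 genes included, and limma voom 0. With the suffix as a replicate block it called 12 (0.0876%), 11 of them higher (0.0803%), the 5 genes included, and their log2 differences were 2.54 ± 0.34, 2.04 ± 0.31, 1.84 ± 0.20, 1.70 ± 0.22 and 1.24 ± 0.14 in the same order. Without the o2 pair the blocked fit called 0 genes, and Fbxo40 was also not called without o1 or n1. The calls of the 5 genes in these fits follow from their choice and support nothing. Among the other genes listed, Mef2a (edgeR adjusted p = 0.0714), Fbxo32 (0.0738) and Cldn5 (0.0920) lay nearest to the threshold of the blocked fit, on the outside.

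Within suffixes the pair difference, log2(CPM + 1) with E2 minus that with vehicle, was positive 20 times out of 20, which the choice of genes fixes. It ran from 1.30 to 2.27 for Klhl31, 1.17 to 2.07 for Fbxo40, 1.35 to 2.44 for Tmod1, 1.29 to 1.75 for Camk2b and 1.05 to 1.50 for Myo18a. No single suffix gave the highest difference throughout: o2 did for Klhl31 and Myo18a, o1 for Fbxo40, and n2 for Tmod1 and Camk2b. All 5 genes differed by at least 1 in each pair, as 8 of the 13698 genes did (0.0584%), and 8.07% of genes were higher in 4 of 4 pairs. All 5 also had their E2 aortas wholly above their vehicle aortas, as 33 genes did (0.241%). These shares are the background of the choice and support nothing.

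**Figure D2:**
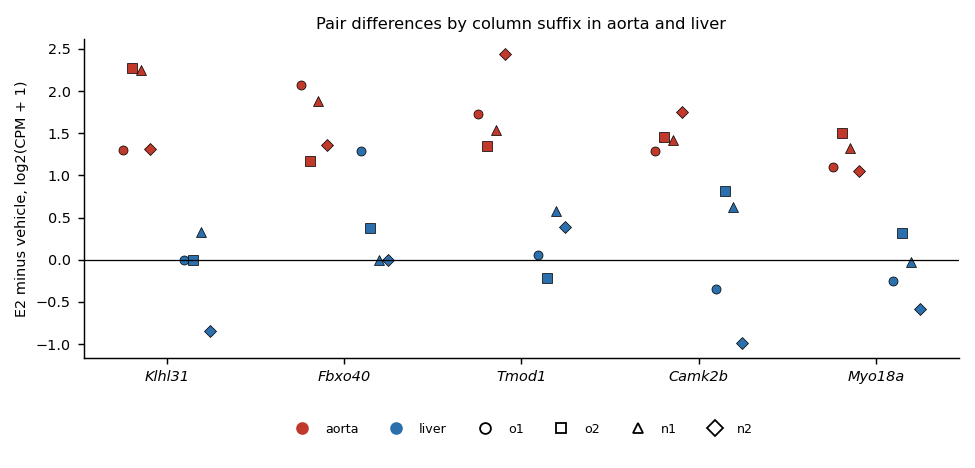
Pair difference in log2(CPM + 1), E2 minus vehicle (vertical axis), for the 5 genes in each suffix (marker shape), in aorta (red) and in liver (blue). Aorta differences lie between 1.05 and 2.44, and liver differences lie on both sides of 0, between -0.99 and 1.29. Liver points compare libraries of like suffix, which are not known to be pairs.

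The o libraries alone gave log2 differences of 2.27, 1.94, 1.60, 1.62 and 1.31 for Klhl31, Fbxo40, Tmod1, Camk2b and Myo18a, and the n libraries alone 2.94, 2.11, 1.98, 1.74 and 1.18. The common direction is fixed by the choice of genes. The n libraries alone, fitted without pairing by suffix, called 0 genes, and the o libraries alone, fitted with it, 33. These counts come from unlike fits and do not compare the library types. Without vehicle o1, the library with the most cardiac transcripts, the log2 differences were 2.81, 1.87, 1.79, 1.72 and 1.28. The same values came without E2 o1, because the batch term for o1 takes up the remaining library and the whole pair is lost. They therefore do not isolate the part of vehicle o1. Without vehicle n2, the library with the most lymphocyte transcripts, the log2 differences were 2.56, 1.78, 1.56, 1.50 and 1.33.

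Liver gave an independent look at the same treatment, since its libraries had no part in the choice. Klhl31 had 7 counts in the 4 vehicle livers together and 6 in the E2 livers, and Fbxo40 had 0 and 8, of which the libraries o1 and o2 held all. A response of these genes was not measurable there at this depth. Tmod1 had 1.33, 2.64, 0.563 and 0.792 CPM in vehicle livers o1, o2, n1 and n2 and 1.44, 2.12, 1.34 and 1.35 CPM in E2 livers, from 39 and 41 counts. These groups overlapped, and Tmod1, Klhl31 and Fbxo40 did not pass the filter on low counts in liver.

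Camk2b had 3.20, 0.711, 3.0 and 3.01 CPM in vehicle livers o1, o2, n1 and n2 and 2.31, 2.02, 5.13 and 1.01 CPM in E2 livers. Between libraries of like suffix E2 was higher in 2 of 4, and the log2 difference was 0.30 ± 0.57 (SE, 95% interval -0.91 to 1.51, edgeR adjusted p = 0.957). Suffix pairing had little backing in liver, where deviations of vehicle and E2 libraries correlated at 0.30 (o) and -0.05 (n) after removal of each letter's mean. Myo18a had 492, 252, 183 and 163 CPM in vehicle livers and 413, 315, 180 and 108 CPM in E2 livers of the same suffixes. E2 was higher in 1 of 4 suffixes, and the log2 difference was -0.12 ± 0.21 (95% interval -0.57 to 0.34, edgeR adjusted p = 0.956). The liver model called 0 of 11726 genes (0%), with 502 (4.28%) at an unadjusted p under 0.05, neither of them among these 2 genes.

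The aorta effect of E2 minus its liver effect shares the aorta libraries with the choice of genes and is given without a test. On the log2 scale it was 1.36 ± 0.28 for Myo18a, 1.54 ± 0.51 for Tmod1, 1.34 ± 0.61 for Camk2b and 2.81 ± 1.13 for Klhl31 (SE). The values of Klhl31 and Tmod1 rest on the few liver counts above, and that of Fbxo40 has no stable sign.

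The levels of the 5 genes in tissue without E2 were compared between aorta and liver in the vehicle libraries. Tmod1 was higher in aorta, by 3.04 ± 0.55 on the log2 scale (SE, edgeR adjusted p = 6.55e-04), at 10.3 ± 3.42 CPM against 1.33 ± 0.930 CPM in liver (SD, n = 4). Myo18a was lower in aorta, at -1.45 ± 0.34 (adjusted p = 0.00363) and 92.7 ± 18.5 against 273 ± 151 CPM. It was lower in each suffix, but the size of the gap depended on library type. In o1 and o2 it had 97.6 and 69.0 CPM in aorta against 492 and 252 CPM in liver. The gap was smaller in n1 and n2, at 90.4 and 114 against 183 and 163 CPM. Camk2b did not pass the test at 0.76 ± 0.54 (95% interval -0.42 to 1.94, adjusted p = 0.258). Of all tested genes 47.5% were called (24.1% higher, 23.4% lower in aorta). Tmod1 was low in liver and passed the filter on low counts through its aorta level, so its call describes that level and supports nothing further. Klhl31 and Fbxo40, low in both tissues with vehicle, did not pass that filter. Pooled over the 4 libraries, Klhl31 was 5.27 times as high in vehicle aorta as in vehicle liver (95% counting interval 2.46 to 13.5), and Fbxo40, with 0 liver counts, at least 19.3-fold higher, with 3 counts over the group as the floor. The Klhl31 ratio depended on library type. In o1 and o2 it had 2.04 and 2.86 CPM in vehicle aorta and 0 in vehicle liver. In n1 and n2 the tissues overlapped, at 0.558 and 0.706 CPM in aorta and 0.375 and 0.792 CPM in liver.

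The name of muscle-type genes is thus loose: Camk2b is best known from brain, and Myo18a, made in many tissues, was higher in liver than in vehicle aorta. In the E2 libraries the same comparison gave 0.00 ± 0.40 for Myo18a, at 218 ± 17.2 CPM in aorta and 254 ± 136 CPM in liver (SD, n = 4). It gave 4.56 for Tmod1 and 2.25 for Camk2b. The E2 aortas enter this comparison, so it is a description.

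Per kilobase of exon, the order of the 5 genes in vehicle aorta was Myo18a (5.78 CPM per kb), Tmod1 (2.62), Camk2b (0.415), Fbxo40 (0.341) and Klhl31 (0.238). Myo18a and Tmod1 were apart from the other genes, whose ranges over libraries overlapped. In E2 aorta the levels were 13.6 CPM per kb for Myo18a, 9.32 for Tmod1, 1.42 for Fbxo40, 1.35 for Camk2b and 1.30 for Klhl31, so the low genes came to nearly the same mean. Their exon lengths lie at percentiles 97.9 (Myo18a), 42.9 (Tmod1), 87.1 (Camk2b), 62.5 (Fbxo40) and 72.1 (Klhl31) of the genes tested. Across 13082 genes with a length, the aorta E2 difference had a Spearman correlation of 0.21 with exon length, and the liver one -0.24. Among genes of like length to each of the 5, the median difference was between 0.00 and 0.06.

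**Figure D3:**
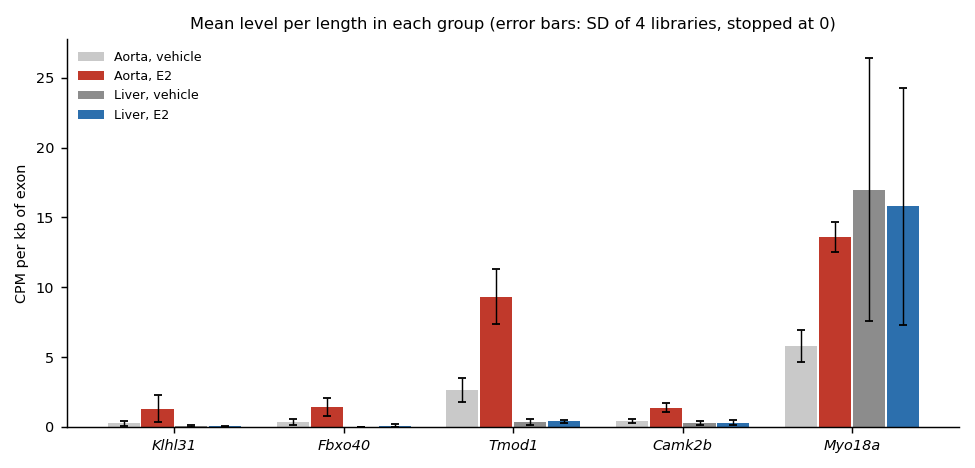
Mean CPM per kb of exon (bars from 0) of the 5 genes in each of the 4 groups, with error bars of 1 SD over 4 libraries. In aorta Myo18a (5.78 with vehicle, 13.6 with E2) and Tmod1 (2.62 and 9.32) stand above the other genes, and of the 5 genes Myo18a alone has a tall bar in liver.

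Levels differed between n and o libraries for Klhl31 in aorta and for Myo18a in liver. In aorta Klhl31 was lower in n than in o libraries by a log2 difference of -1.76 ± 0.42 (SE, edgeR adjusted p = 0.00312). The n libraries had 0.558 and 0.706 CPM with vehicle against 2.04 and 2.86 CPM in the o libraries. The other four genes did not pass in aorta, at 0.04 ± 0.48 (Fbxo40), 0.03 ± 0.27 (Tmod1), 0.23 ± 0.28 (Camk2b) and 0.13 ± 0.18 (Myo18a). So 1 of 5 was called, where 61.0% of all tested genes were (33.0% higher and 28.1% lower in n). In liver Myo18a was lower in n libraries, at -1.32 ± 0.26 (adjusted p = 2.00e-04), and Camk2b had 0.57 ± 0.60 (adjusted p = 0.397), so 1 of 2 was called against a background of 69.5% (33.7% higher, 35.7% lower).

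The closest relatives and partners of the 5 genes, 32 genes of which 25 could be tested, were not called in E2 aorta by edgeR, with or without the block, nor by DESeq2. At an unadjusted p under 0.05 there was 1, Fbxo32, and 16 were higher and 9 lower with a median log2 difference of 0.05, against -0.01 over all genes. Among Kelch relatives of Klhl31, the muscle proteins Klhl40 and Klhl41 had -0.02 ± 0.39 and 0.13 ± 0.18, and the ligase scaffold Cul3 0.01 ± 0.20. Fbxo32, another muscle F-box gene known as atrogin-1, was the highest of them at 0.98 ± 0.32. It had 32.7 ± 18.6 CPM with vehicle and 66.7 ± 43.7 CPM with E2 (SD, n = 4), was higher in 4 of 4 pairs, and had an adjusted p of 1.00 (0.0738 with the block). The Fbxo40 target Irs1 had 0.34 ± 0.22.

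Among actin cappers, Tmod2 and Tmod3, the tropomodulins of nerve and of most tissues, had 0.20 ± 0.36 and -0.08 ± 0.23, and Lmod1, the leiomodin of smooth muscle, had 0.34 ± 0.22. The striated muscle forms had lower values with E2 and wide errors, at -1.02 ± 0.64 for Tmod4 (higher in 0 of 4 pairs), -1.58 ± 1.03 for Lmod2 and -0.49 ± 0.46 for Lmod3, each with an edgeR adjusted p of 1.00. Tmod3 had 139 ± 94.9 CPM with vehicle and 128 ± 80.4 CPM with E2 (SD, n = 4). The other kinase subunits had 0.05 ± 0.25 (Camk2d) and 0.52 ± 0.32 (Camk2g), with vehicle levels of 91.9 ± 33.0 and 36.7 ± 15.7 CPM. Myo18b, the muscle relative of Myo18a, had 0.20 ± 0.25, and its partner Golph3 0.20 ± 0.30.

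Wider muscle lists showed the same mixture. In E2 aorta edgeR called none of their genes with or without the block. Higher genes numbered 12 of 19 for thick filament and myosin heavy chains (median log2 difference 0.19), 15 of 37 for thin filament and actin capping (-0.08), 14 of 29 for the Z-disc (-0.02) and 9 of 19 for unconventional myosins (-0.01). They numbered 22 of 38 for calcium release, uptake and calmodulin kinases (0.06), 18 of 26 for muscle transcription factors (0.07) and 29 of 40 for muscle ubiquitin ligases and Kelch proteins (0.13). Unadjusted p-values under 0.05 numbered 1, 1, 1, 3, 1, 1 and 2 in the order given, and DESeq2 called 1 gene, Mylk2 of the thick filament list. Among contractile genes with high counts, smooth muscle myosin Myh11 had 0.27 ± 0.20, smooth muscle actin Acta2 0.00 ± 0.18, tropomyosin 2 (Tpm2) -0.12 ± 0.25 and filamin C (Flnc) 0.03 ± 0.23. Jph2, which holds calcium stores against the cell membrane, had 0.63 ± 0.18, and Mef2a, a muscle transcription factor, 0.82 ± 0.31, both higher in 4 of 4 pairs.

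**Figure D4:**
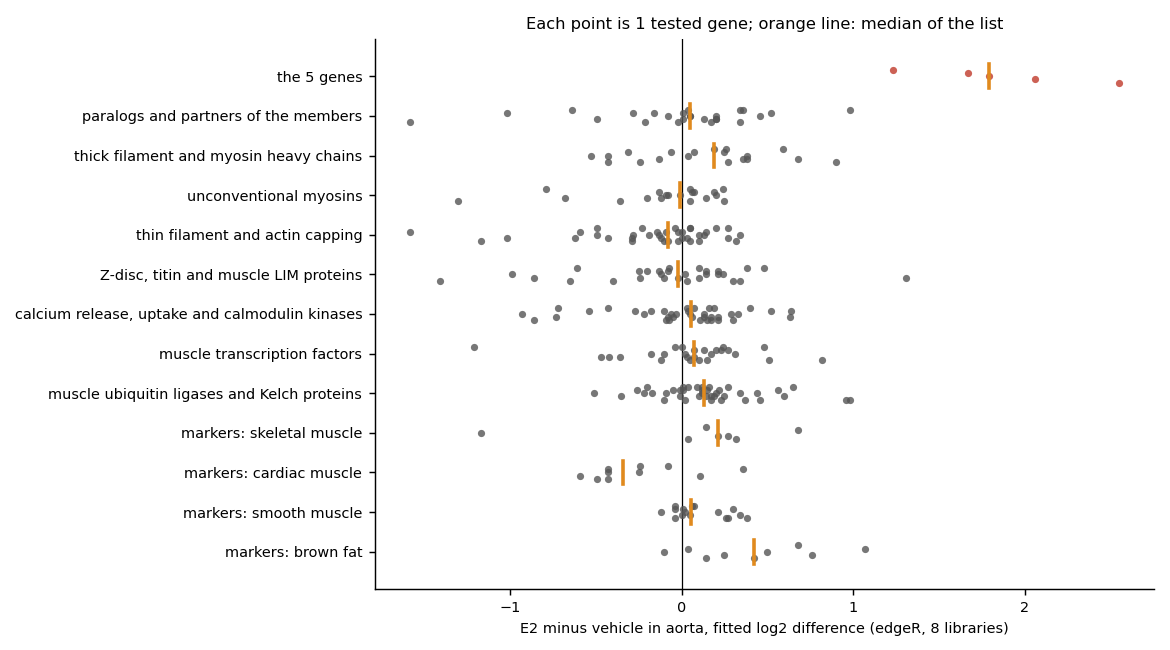
Log2 difference of E2 over vehicle in aorta (horizontal axis) of each tested gene, with an orange line at each list's median, for the 5 genes, their relatives, the muscle lists and 4 marker lists. The medians of the relatives and of the muscle lists lie between -0.08 and 0.19, those of cardiac and brown fat markers at -0.34 and 0.42, and the 5 genes between 1.23 and 2.55.

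Because the 5 genes are known from striated muscle, red cells and brain, markers of such cells were counted in the same aortas. The 18 skeletal muscle markers summed to 91.9, 53.2, 47.2 and 52.9 CPM with vehicle and 108, 82.1, 43.1 and 58.7 CPM with E2 in o1, o2, n1 and n2. The sum was thus higher with E2 in o1, o2 and n2 and lower in n1, with 6 of 7 tested genes higher and none called. The most abundant, Casq1 and Acta1, had 36.4 ± 30.8 and 13.9 ± 15.9 CPM with vehicle and 47.2 ± 41.5 and 15.5 ± 17.5 CPM with E2 (SD, n = 4). Of those that define the lineage, Myog had 0 counts in both groups, Myod1 had 1 and 0, and Myf6 had 0 and 1, while muscle creatine kinase (Ckm) had 27 and 33 counts. The 18 cardiac markers summed to 176 to 448 CPM with vehicle and 182 to 347 CPM with E2, with 2 of 10 tested genes higher.

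Most brown fat markers had higher values with E2. Their sum was higher with E2 in each suffix (203, 441, 782 and 606 CPM with vehicle in o1, o2, n1 and n2, and 209, 598, 1150 and 748 CPM with E2), 8 of 9 tested markers were higher with a median of 0.42, and none was called. Ucp1, the most abundant, had 300 ± 177 CPM with vehicle and 433 ± 281 CPM with E2 (SD). Dio2 was lower, at 46.0 ± 25.7 and 43.2 ± 23.8 CPM. Of the 10 on the list none was at 0. The part of fat tissue in the differences of the 5 genes was not tested.

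The 12 nerve and glia markers summed to 144, 48.9, 140 and 203 CPM with vehicle and 272, 25.5, 63.5 and 303 CPM with E2 in o1, o2, n1 and n2. The sum was higher with E2 in o1 and n2 and lower in o2 and n1, and the pair differences of Camk2b were 1.29, 1.46, 1.42 and 1.75 in o1, o2, n1 and n2. The 10 erythroid markers summed to 118, 300, 259 and 180 CPM with vehicle and 243, 360, 181 and 152 CPM with E2, with 4 and 3 of the 10 genes without a count. That sum was higher with E2 in o1 and o2 and lower in n1 and n2, and the pair differences of Tmod1 were 1.73, 1.35, 1.54 and 2.44. The part of nerve or red cells in these differences was not tested. Of smooth muscle markers 12 of 16 were higher, with a median of 0.06 and none called.

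Markers of some other cell types were lower in the E2 aortas. All 8 tested hepatocyte markers were lower (median -0.85), 7 of them at an unadjusted p under 0.05, with sums of 649, 188, 109 and 122 CPM with vehicle and 416, 127, 82.9 and 67.5 CPM with E2 in o1, o2, n1 and n2. All 10 lymphocyte markers were lower too (median -1.46), though their sum was higher with E2 in o1 and n1. Higher markers numbered 1 of 10 for adventitial fibroblasts, 1 of 9 for macrophages, 5 of 10 for endothelium, 4 of 9 for white fat, 6 of 7 for skeletal muscle, 4 of 5 for erythroid cells and 8 of 12 for nerve and glia. edgeR called none of these markers with or without the block, and DESeq2 called Alb and Ttr of the hepatocyte list. Their part in the differences of the 5 genes was not tested.

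**Figure D5:**
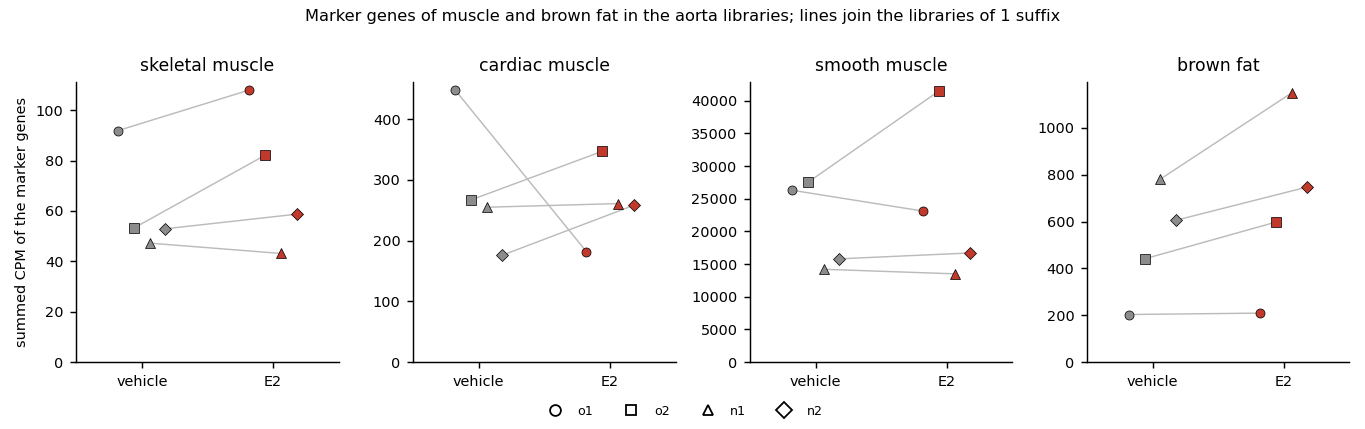
Summed CPM of the marker genes (vertical axes from 0) of skeletal, cardiac and smooth muscle and of brown fat in each aorta library, with lines that join libraries of 1 suffix. Brown fat sums are higher with E2 in every suffix, from 203 and 209 CPM in o1 to 782 and 1150 CPM in n1, and the muscle sums go both ways.

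The 5 genes varied together over the 8 aorta libraries once each library was centred on the mean of its letter. Pearson correlations of log2(CPM + 1) between them lay from 0.73 (Fbxo40 and Myo18a) to 0.95 (Tmod1 and Camk2b), a pattern that the common E2 difference builds in. Among all tested genes, those most like Klhl31 were Hspa4 (0.98), 1200014J11Rik, Pgr, Rreb1 and Pim1 (0.97 each). Pgr encodes the progesterone receptor, a known estrogen target, and had a log2 difference of 1.97 in aorta, from a mean of 2.50 to 9.79 CPM. Hspa4, 1200014J11Rik, Rreb1 and Pim1 had smaller differences, of 0.34, 0.12, 0.89 and 0.36. Those most like Fbxo40 were Fam160a1 (0.96), Uqcc1, Tnni3k, Wwc2 (0.95 each) and Plin5 (0.94). For Tmod1 they were Tti1, Mmp19, Plekhm1 (0.98 each), Galnt15 and Bloc1s5 (0.97 each). Mmp19, a matrix metalloproteinase, had a log2 difference of 1.48, from 68.8 to 189 CPM, and Tti1, Plekhm1, Galnt15 and Bloc1s5 had 0.47, 0.79, 0.87 and 0.75. For Camk2b they were Zfp652, C1qtnf6, Synpo (0.99 each), Fam160a1 (0.98) and Pkdcc (0.97), and for Myo18a Cradd, Ndrg2 (0.98 each), Mast2 (0.97), Kif7 and Il6ra (0.96 each). Fam160a1 was on the lists of both Fbxo40 and Camk2b. Over all these like genes the log2 differences in aorta ran from 0.03 (Uqcc1) to 1.97 (Pgr), so a high correlation did not require a large difference. These correlations rest on libraries that share their treatment and library type, and they are descriptions over 8 points.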

How the data were processed

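RNA was sequenced from 16 libraries of aorta or liver with E2 or vehicle. Per the submitters' processing notes, the authors used Bowtie 0.12.5, build mm9, HTSeq 0.4.5p7 and edgeR 3.4.2. Its annotation, strand mode and read filtering: not given in the sources used here. The deposited values are read counts per gene symbol, handled as estimated counts because each column ends in a percentage, and every gene value was whole, so rounding changed nothing. The 8 lines that name no gene were left out. Of these, reads in no annotated gene were 48.0% to 75.2% of the sum of gene, no-gene and ambiguous reads in a library.

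Columns were mapped to groups by tissue and treatment only. The members and the 20 gene lists (372 symbols, 369 in the table) were chosen with earlier results of these data known. The text names the 5 genes, their listed relatives, the 3 most abundant genes of a list, genes next to the threshold and, for each of the 5, the 5 genes most like it.

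All tests on counts used edgeR 4.0.16 and R 4.3.3 (TMM, filterByExpr with minimum count 10 and total 15, glmQLFit and glmQLFTest, Benjamini-Hochberg threshold 0.05 over all genes tested, and an absolute log2 difference over 1 between tissues and library types). The batch o1, o2, n was a covariate, except between library types, where treatment was. For E2 against vehicle this batch term pairs the o libraries by suffix, but not the n libraries. DESeq2 1.42.0, limma 3.58.1 (voom), other normalization, no filter, single library types and leaving out libraries were tried. For E2, the o libraries alone were fitted with pairing by suffix and the n libraries alone without it, so their counts of calls are not comparable. Where a fit with the batch term left out 1 o library, that term took up its partner, and the pair was lost. The script was tested on simulated data. The SE is the log2 difference divided by the square root of F. Exon lengths are unions of GENCODE vM21 exons (GRCm38). Counting intervals and the 3-count floor cover counting error only.

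Pairing by suffix was checked by the correlation across genes of the deviations of the vehicle and E2 library from their group means. It was 0.91, 0.93, 0.92 and 0.89 in aorta for o1, o2, n1 and n2, and 0.92, 0.87, 0.92 and 0.88 in liver. After removal of the mean of each letter, aorta had 0.51 (o) and 0.43 (n), and liver 0.30 (o) and -0.05 (n). The calls of both fits were known when this was done. The suffix was taken to pair the aorta libraries, an assumption that no label states.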

Additional observations from a re-analysis of the deposited data

Results flagged for a closer look

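In 3 of 30 sets of 4 values, which were levels in a group or pair differences, 1 value lay far from the rest. The rule was set for about 1 in 20 groups by chance, a rate that does not hold for levels near 0. A single library with counts among libraries with 0 is always flagged. In E2 liver, Klhl31 had 0.733 CPM in n1 and 0 counts in the others. Tmod1 had 2.12 CPM in E2 liver o2, above 1.34 to 1.44 CPM in the others. Camk2b had 0.711 CPM in vehicle liver o2, below 3.0 to 3.20 CPM in the others. All 3 values rest on few reads, and none is an aorta value.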

How the results depend on the processing

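In aorta edgeR called 0 genes for E2, against 24 with DESeq2, 33 in the o libraries alone and 0 to 17 without 1 library (17 without vehicle n2). The batch term of the main fit already pairs the o libraries by suffix, and the replicate block pairs the n libraries too. With the block edgeR called 12, and 0 to 35 without 1 pair (0 without o2, 35 without n2). Over all these settings the log2 differences stayed at 2.22 to 2.94 for Klhl31, 1.68 to 2.36 for Fbxo40, 1.56 to 2.05 for Tmod1, 1.50 to 1.91 for Camk2b and 1.15 to 1.33 for Myo18a. In liver 0 genes were called, against 6 with no filter, 5 in the o libraries alone, 1 in the n libraries alone and 0 to 1 without 1 library (1 without vehicle o2 or E2 o2). For the difference between tissues 0 genes were called, against 12 with DESeq2, 2 in the o libraries alone, 1 with the replicate block, 0 to 4 without 1 library (4 without vehicle aorta n1) and 0 to 1 in blocked fits without 1 pair. The block changed no call of the 5 genes outside the aorta comparison.

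Signs turned for small differences, and for the E2 difference of Fbxo40 between tissues, which rests on few liver counts. In liver Myo18a had 0.05 in the o libraries alone and -0.27 to 0.02 without 1 library, and Camk2b -0.14 to 0.61. The difference of Fbxo40 between tissues was -2.87 ± 1.80 (SE), against 0.14 with limma voom and 2.13 in the n libraries. For n against o in aorta, Fbxo40 had -0.02 with limma voom and -0.38 to 0.52 without 1 library, and Tmod1 -0.23 to 0.22. The cause of these shifts was not tested. Myo18a had 0.00 between tissues in the E2 libraries, against -1.45 in the vehicle libraries. That is a change of samples and not of processing, and E2 over vehicle was 1.23 for Myo18a in aorta and -0.12 in liver. Depth limits Klhl31, Fbxo40 and Tmod1 in liver.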

Other observations

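Other muscle genes chosen after their values were seen went both ways in E2 aorta, and edgeR called none, while DESeq2 called Mylk2. Ttn, which encodes the giant spring protein titin, had a log2 difference of -1.41 ± 0.41 (adjusted p = 1.00) and was lower in 4 of 4 pairs, as 6.43% of genes were, with 48.4 ± 64.7 CPM with vehicle and 13.7 ± 14.2 CPM with E2 (SD, n = 4). Its pair difference was -2.50 in o1, where the vehicle library held the most cardiac transcripts, and -0.42 to -0.98 in the other pairs. The skeletal muscle myosin kinase Mylk2 had 0.90 ± 0.20 (adjusted p = 0.731) and was higher in 4 of 4 pairs, at 25.1 ± 7.43 CPM with vehicle and 50.5 ± 26.8 CPM with E2. Asb2, a substrate adaptor of a ubiquitin ligase that acts on filamins, had 0.96 ± 0.23 (adjusted p = 0.925) and was also higher in 4 of 4 pairs. With the block their adjusted p-values were 0.159 for Ttn, 0.116 for Mylk2 and 0.208 for Asb2.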
